A study of Mus musculus with 12 samples.

Results

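The genes described here were 37 markers of microglia and brain macrophages, among 41388 genes in a count table of the mouse medial prefrontal cortex (mPFC). The list was chosen by cell type and known role, with earlier results of these data known, and complement genes were left out. All 37 were found in the table by symbol. The study asked how the gut microbiota affects transcription in this tissue. Poly(A)-enriched RNA was sequenced from male Swiss Webster mice culled at 10 weeks, in 12 libraries of 4 per group, each a pool of RNA from 2 to 3 animals. CON mice were raised conventionally, GF mice were germ-free throughout life in isolators, and exGF mice were born germ-free, then moved on postnatal day 21 to the standard unit beside CON mice, where environmental microbes colonized them. Diet did not differ between groups (autoclaved pellets). GF animals differed from the others in isolator housing as well as in microbes, and these cannot be told apart here. The exGF mice were also in isolators until postnatal day 21, and GF and CON breeding pairs were separate. For both groups born germ-free, breeding stock and early housing therefore cannot be told apart from early microbes either.

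Microglia are the resident macrophages of the brain parenchyma. They arise from yolk sac progenitors, depend on signalling through the CSF1 receptor, and in the healthy adult cortex carry a homeostatic program of surface sensors for nucleotides, fractalkine and lipids. Macrophages of the brain borders, in the meninges, perivascular spaces and choroid plexus, share the myeloid genes but also express scavenger receptors such as the mannose receptor and, in part, antigen presentation genes.

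Each library held 13280926 to 29134760 counts on genes, the lowest in GF replicate 1 and the highest in CON replicate 3. Depth differed by group, with medians of 25210592 counts in CON, 18818715.5 in GF and 26345712 in exGF. The exGF columns of the table carry names but no replicate number from the sample labels, and are called GFR1 to GFR4. Marker lists of neurons, astrocytes and oligodendrocytes were present throughout (the neuronal vesicular glutamate transporter Slc17a7 had 1412 ± 53.3 CPM in CON, SD, n = 4, where CPM are counts scaled to a common library total). Of 20 markers of infiltrating leukocytes, 6 (Ly6g, Cxcr2, Cd3e, Cd3d and Gzma among them) had at most 3 counts in every library. Choroid plexus genes summed to 16.1 CPM in GF replicate 1 against 3.87 to 8.38 CPM elsewhere, and striatal genes summed to 361 CPM in CON replicate 2 and 356 in GFR4 against 197 to 232 in the other libraries.

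Compared per length (RPKM, which is CPM divided by exon length in kilobases), the members spanned a wide range of levels in CON. Ctss, which encodes the lysosomal protease cathepsin S, was the highest at 53.1 ± 2.75 RPKM (SD, n = 4). It was followed by Tyrobp at 22.8 ± 2.63, Csf1r at 18.3 ± 1.10 and P2ry12 at 14.6 ± 1.51 RPKM, and the SD ranges of Csf1r and P2ry12 did not touch. The lowest were the lymphatic and border macrophage receptor Lyve1 at 0.348 ± 0.0638 RPKM and Ptprc (CD45), the pan-leukocyte phosphatase, at 0.137 ± 0.0391 RPKM. The median member stood at the 53.2 percentile of the tested genes in RPKM, with members from the 3.001 to the 94.9 percentile.

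Myeloid promoters are bound by PU.1, the product of Spi1, and by IRF8 with it. Promoter windows of 300 bases, 250 before and 50 after the transcription start, were available from RefSeq (build GRCm38.p6) for 28 of the 37 members. The purine-rich core of the PU.1 motif, GAGGAAGT on either strand, was in windows of 3 of these 28 genes (10.7%; Inpp5d, Ctss and Pf4) and of 3.69% of all 27025 genes in the same table. The shorter GAGGAA, which is contained in GAGGAAGT, was in windows of 15 of the 28 (53.6%) and of 31.3% of all genes. The composite element of both factors (the ETS-IRF composite element, searched on either strand) was in 2 of the 28 (7.14%; Fcgr2b and Cd68) and in 3.16% of all genes. The windows of 4 members that the results turn on are printed 5′ to 3′ in the direction of transcription, with these letters in capitals on the strand read (TTCCTC is GAGGAA on the other strand).
Lyz2 (chr10:117282223-117282522, minus strand): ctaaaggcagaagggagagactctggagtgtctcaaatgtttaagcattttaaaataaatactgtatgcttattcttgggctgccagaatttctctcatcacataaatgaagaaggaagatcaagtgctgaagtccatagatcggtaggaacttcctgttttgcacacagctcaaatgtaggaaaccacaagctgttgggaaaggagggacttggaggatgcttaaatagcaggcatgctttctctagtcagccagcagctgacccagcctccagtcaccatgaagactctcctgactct
Fcgr2b (chr1:170976022-170976321, minus strand): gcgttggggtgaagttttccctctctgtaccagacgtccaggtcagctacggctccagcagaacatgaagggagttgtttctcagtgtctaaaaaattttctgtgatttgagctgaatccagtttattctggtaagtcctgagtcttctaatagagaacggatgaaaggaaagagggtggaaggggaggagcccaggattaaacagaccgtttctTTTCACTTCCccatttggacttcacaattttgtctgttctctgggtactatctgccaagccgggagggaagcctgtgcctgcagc
Ctss (chr3:95526536-95526835, plus strand): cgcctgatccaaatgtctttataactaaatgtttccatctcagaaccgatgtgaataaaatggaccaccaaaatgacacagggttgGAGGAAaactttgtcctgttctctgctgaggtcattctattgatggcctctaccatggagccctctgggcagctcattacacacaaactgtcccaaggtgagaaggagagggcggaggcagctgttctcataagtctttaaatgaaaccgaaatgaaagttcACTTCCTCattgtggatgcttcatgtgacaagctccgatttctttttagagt
Mrc1 (chr2:14229164-14229463, plus strand): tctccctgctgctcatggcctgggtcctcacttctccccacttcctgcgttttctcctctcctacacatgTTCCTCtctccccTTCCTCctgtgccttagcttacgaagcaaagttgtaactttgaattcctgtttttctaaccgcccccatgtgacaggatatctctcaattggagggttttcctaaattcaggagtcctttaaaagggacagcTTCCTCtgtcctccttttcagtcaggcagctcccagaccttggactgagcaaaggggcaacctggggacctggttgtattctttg
In Fcgr2b the capitals are the composite, in Ctss the short string and, as ACTTCCTC on the other strand, the longer one, and in Mrc1 the short string at 3 positions. The Lyz2 window held none of the 3 strings, which says only that these letters are not in it.

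Most members had lower values in both groups born germ-free than in CON, by small amounts. In GF, 30 of the 37 had a log2 fold change against CON below 0 (48.3% of all 15542 tested genes did), with a median of -0.18 against 0.0069 over all tested genes. In exGF, 34 of the 37 lay below 0 (52.1% of 15813 tested genes), with a median of -0.26 against -0.0065. At the threshold of an adjusted p under 0.1 (the quasi-likelihood test of edgeR, Benjamini-Hochberg adjusted across every tested gene, hereafter the edgeR test), 1 member, Lyz2, fell in GF (0.135% of all tested genes were called lower, 0.116% higher and 0.251% either way) and none was called in exGF (0.0443% lower, 0.0253% higher and 0.0696% either way). In DESeq2, run as an alternative tool, 3 members were called lower in each comparison: Lyz2, Olfml3 and Fcgr2b in GF, and Lyz2, Fcgr2b and Ly86 in exGF. DESeq2 called more genes in all, 195 in GF (0.605% of those with an adjusted p lower and 1.19% either way) and 52 in exGF (0.171% lower and 0.278% either way).

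At an unadjusted p under 0.05, 8 members (21.6%) were lower in GF and 0 higher, beside 3.94% and 4.75% of all tested genes. In exGF, 15 members (40.5%) were lower at that level and 0 higher, beside 2.87% and 2.46% of all genes. The 8 of GF were Olfml3, Csf1r, Fcgr2b, Lyz2, Unc93b1, Ly86, Mrc1 and Cd74, and each was among the 15 of exGF, but the comparisons share the CON libraries. The other 7 were P2ry13, Tmem119, Cx3cr1, Itgb5, Irf8, Tyrobp and Ctss. Every GF library lay below every CON library for 6 members (16.2%, beside 2.55% of all tested genes), and every exGF library did for 10 (27.0%, beside 1.52%). For 5 members, Csf1r, Fcgr2b, Lyz2, Unc93b1 and Mrc1, both held. No member lay wholly above CON in either group (2.53% of tested genes did in GF and 1.78% in exGF). Whether fewer cells or less RNA per cell lay behind a lower value cannot be told apart in bulk tissue. At an unadjusted p under 0.05, the count in GF was 16 without CON replicate 4, and that in exGF was 9 without CON replicate 2 or without GFR2.

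**Figure D1:**
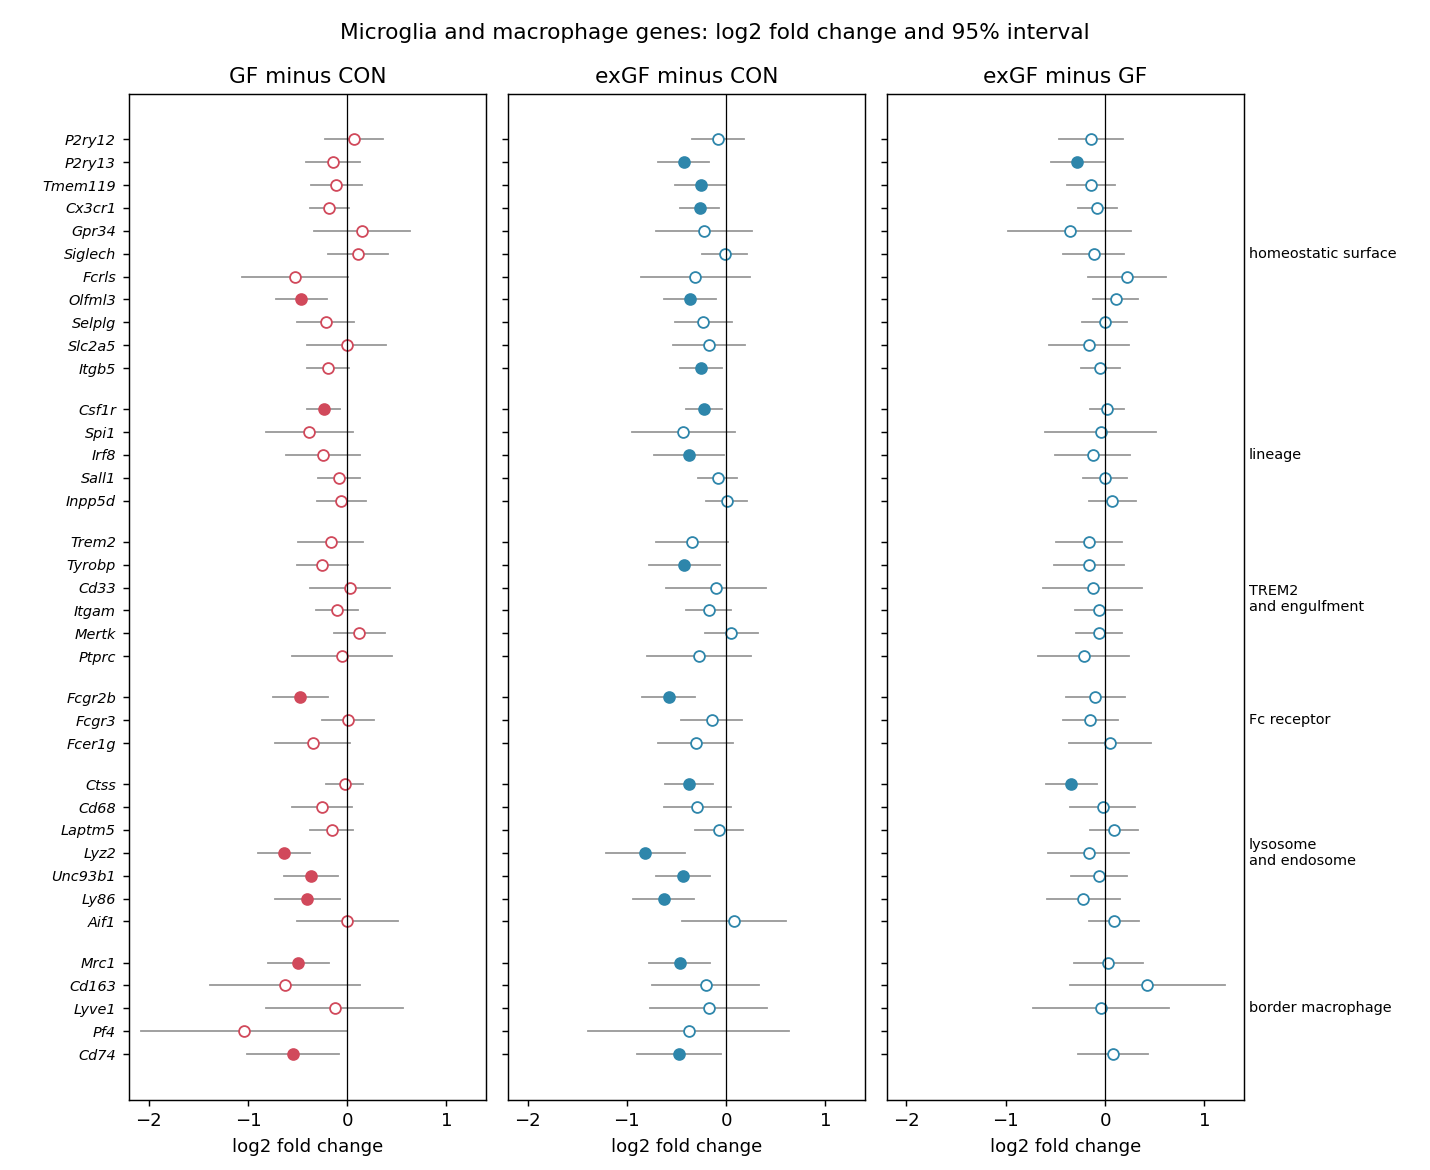
Fitted log2 fold change (points, horizontal axis) with its 95% interval (lines) for the 37 members in rows, ordered by role, in 3 panels for GF minus CON, exGF minus CON and exGF minus GF; filled points have an unadjusted p under 0.05, and Pf4 was not tested in the last panel. The points lie mostly to the left of 0 in the first 2 panels and on both sides of it in the third, where 2 points are filled.

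The 11 homeostatic surface genes had a median log2 fold change of -0.14 in GF, with 8 of 11 below 0, and of -0.25 in exGF, with 11 of 11 below 0. At an unadjusted p under 0.05, 1 was lower in GF and 5 in exGF. P2ry12, the ADP receptor that directs microglial processes to injury, had 41.03, 38.2, 31.9 and 37.5 CPM in the 4 CON libraries, against 32.3, 49.9, 32.7 and 40.6 for GF and 42.9, 36.9, 30.4 and 30.9 for exGF. GF replicate 2 was the highest of all 12 and the groups overlapped. Its log2 fold change was 0.070 in GF (95% interval -0.22 to 0.36) and -0.083 in exGF (-0.35 to 0.18). P2ry13, its neighbour on chromosome 3 and a second ADP receptor (chr3:59207892-59210882 in GRCm38, within the larger Med12l), had 17.6, 19.6, 21.7 and 16.5 CPM across CON, 17.3, 20.5, 16.1 and 14.4 across GF and 14.4, 15.6, 13.2 and 13.1 across exGF. All exGF libraries lay below all CON libraries, while GF ran across both. The difference from CON was -0.43 in exGF (SE 0.12, unadjusted p = 0.00318) and -0.14 in GF (unadjusted p = 0.290), in log2 units.

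Tmem119, a membrane protein that separates microglia from other brain macrophages, had 23.1, 27.1, 21.6 and 19.8 CPM in the CON libraries, 25.3, 20.4, 20.1 and 19.3 in those of GF and 17.6, 18.2, 21.02 and 20.2 in those of exGF. CON replicate 2 and GF replicate 1 were the highest, and the groups overlapped. The log2 fold changes were -0.11 in GF and -0.26 in exGF (unadjusted p = 0.0496). Cx3cr1, the receptor for the neuronal chemokine fractalkine, had 50.05, 55.7, 49.7 and 45.6 CPM in the 4 CON libraries, against 47.2, 47.9, 42.01 and 40.5 for GF and 41.2, 42.6, 45.05 and 39.4 for exGF. The highest exGF library lay just under the lowest CON library, and 2 GF libraries were above it. In log2 units the difference was -0.18 in GF (unadjusted p = 0.0784) and -0.26 in exGF (unadjusted p = 0.0126).

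Olfml3, a secreted olfactomedin-domain protein enriched in microglia, had 15.6, 19.6, 17.2 and 14.4 CPM across CON, 12.6, 11.9, 12.4 and 11.7 across GF and 14.5, 12.4, 12.9 and 12.3 across exGF. All GF libraries lay below all CON libraries, and in exGF GFR1 lay just above the lowest CON library. The log2 fold change was -0.46 in GF (SE 0.12, edgeR adjusted p = 0.204) and -0.36 in exGF (SE 0.12, edgeR adjusted p = 0.698). Without the filter on low counts the GF value passed the threshold. Gpr34, a receptor for lysophosphatidylserine, ranged widely, with 9.89, 10.9, 8.08 and 10.4 CPM in the CON libraries, 5.58, 15.8, 10.7 and 10.8 in those of GF and 13.01, 8.86, 5.37 and 6.74 in those of exGF. GF and exGF libraries lay on both sides of CON, and the sign in GF rested on GF replicate 2 (log2 fold change 0.15 with it and -0.10 without it). Without the same library P2ry12 moved from 0.070 to -0.076.

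Of the other surface genes, Itgb5, the integrin beta subunit of the vitronectin receptor, had means of 44.6 ± 4.64 CPM for CON (SD, n = 4), 39 ± 3.16 for GF and 37.7 ± 2.38 for exGF, with every exGF library below every CON library, although the 2 nearest of them both round to 40.5 CPM. Its log2 fold change in exGF was -0.25 (unadjusted p = 0.0241). Fcrls, a scavenger receptor-like molecule of mouse microglia, varied within CON from 9.94 to 24.2 CPM, and its log2 fold change of -0.52 in GF had a 95% interval of -1.05 to 0.012. Selplg, the P-selectin ligand, had -0.22 in GF and -0.23 in exGF in log2 units. Siglech, a sialic acid-binding lectin, had 0.11 and -0.016, and the fructose transporter Slc2a5 had -0.0046 and -0.17. None of these 4 had an unadjusted p under 0.05.

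**Figure D2:**
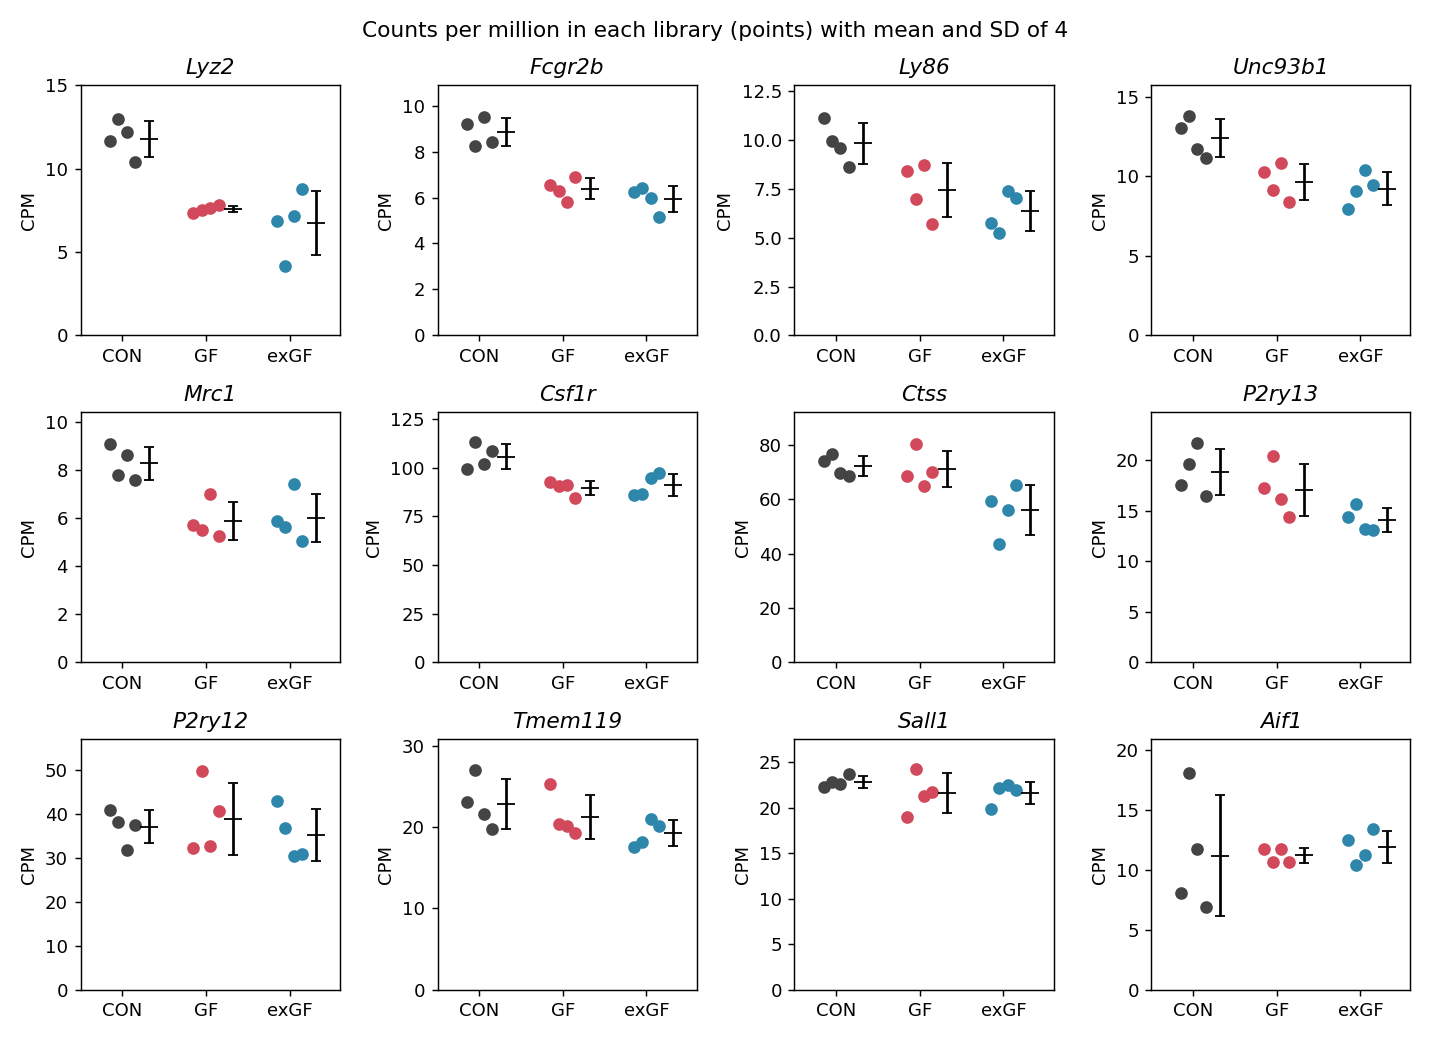
CPM (vertical axis, from 0) of 12 members in each library (points), with the mean and SD of the 4 libraries of CON, GF and exGF beside them. For Lyz2, Fcgr2b, Unc93b1, Mrc1 and Csf1r all GF and exGF points sit below all CON points, for Ly86, Ctss and P2ry13 only the exGF points do, and for P2ry12, Tmem119, Sall1 and Aif1 the groups overlap.

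Csf1r, the receptor for CSF1 and IL-34 on which microglia depend for survival (chr18:61100598-61132149, GRCm38), had the lower values in all 8 libraries of mice born germ-free. It had 99.2, 113, 102 and 108 CPM in the 4 CON libraries, against 92.6, 90.6, 91.1 and 84.4 for GF and 85.9, 86.3, 94.6 and 97.2 for exGF, so that neither group overlapped CON. The log2 fold change was -0.24 in GF (SE 0.079, unadjusted p = 0.00917, edgeR adjusted p = 0.366) and -0.22 in exGF (SE 0.085, unadjusted p = 0.0209, edgeR adjusted p = 0.801). Of its exon bases 15.1% lie in exons of the overlapping genes Hmgxb3 and Mir6983, and reads were counted without strand.

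Of the other 4 genes of lineage and signalling, Spi1, which encodes PU.1, was low, with 3.28, 3.58, 3.38 and 2.63 CPM across CON, 2.16, 2.06, 3.06 and 2.59 across GF and 1.41, 2.12, 3.004 and 2.997 across exGF. The groups overlapped, and the log2 fold changes of -0.38 and -0.43 had unadjusted p = 0.0844 and 0.0961. Sall1, the transcription factor that sets microglia apart from other macrophages, had 22.2, 22.8, 22.6 and 23.7 CPM in the CON libraries, 18.97, 24.3, 21.3 and 21.7 in those of GF and 19.9, 22.2, 22.5 and 21.97 in those of exGF. It was the steadiest member in CON (coefficient of variation 2.77%), and its log2 fold changes were -0.079 in GF (95% interval -0.29 to 0.13) and -0.086 in exGF (-0.28 to 0.11). Irf8, an interferon regulatory factor of myeloid development, had 4.70 ± 0.638, 3.96 ± 0.570 and 3.64 ± 0.489 CPM in CON, GF and exGF (SD, n = 4). Its log2 fold change was -0.37 in exGF (unadjusted p = 0.0416). Inpp5d, the inositol phosphatase SHIP1, had -0.058 in GF and 0.0067 in exGF.

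In the group of TREM2 signalling and engulfment, 4 of 6 genes lay below 0 in GF (median log2 fold change -0.076) and 5 of 6 in exGF (median -0.22). Trem2, the lipid receptor, had 12.7, 16.3, 12.2 and 10.3 CPM in the 4 CON libraries, against 13.9, 10.48, 10.96 and 10.7 for GF and 9.74, 7.78, 10.6 and 12.6 for exGF. The groups overlapped, with CON replicate 2 the highest library, and the log2 fold changes were -0.17 and -0.34 (unadjusted p = 0.290 and 0.0639). Tyrobp encodes DAP12, the adaptor through which TREM2 signals. It had 15.9, 16.8, 15.5 and 12.7 CPM across CON, 11.97, 13.2, 14.1 and 11.8 across GF and 12.02, 7.47, 12.6 and 13.5 across exGF. GFR2 was the lowest library by a wide margin, and without it the log2 fold change in exGF of -0.42 (unadjusted p = 0.0243) was -0.26. The remaining 4 had no unadjusted p under 0.05. Itgam, the CD11b integrin, had log2 fold changes of -0.10 in GF and -0.18 in exGF, and the sialic acid receptor Cd33 had 0.031 and -0.10. Mertk, a receptor tyrosine kinase for apoptotic cells that astrocytes also express, had 0.12 and 0.052, and Ptprc had -0.050 and -0.27.

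Of the 3 Fc receptor genes, the inhibitory receptor had the lowest values relative to CON. Fcgr2b, the inhibitory receptor for IgG (chr1:170958617-170976547, GRCm38), had 9.19, 8.23, 9.52 and 8.42 CPM in the CON libraries, 6.54, 6.27, 5.80 and 6.88 in those of GF and 6.26, 6.44, 5.97 and 5.14 in those of exGF. No GF or exGF library reached the lowest CON library. Its log2 fold change was -0.47 in GF (SE 0.13, unadjusted p = 0.00254, edgeR adjusted p = 0.232) and -0.58 in exGF (SE 0.12, unadjusted p = 4.60e-04, edgeR adjusted p = 0.288), the smallest p of any member in exGF. Fcgr3, an activating IgG receptor on the same chromosome, had 11.9, 12.3, 12.3 and 9.41 CPM in the 4 CON libraries, against 11.2, 11.01, 12.03 and 12.01 for GF and 9.99, 8.68, 10.2 and 12.7 for exGF. The groups overlapped, with CON replicate 4 well below the other CON libraries, and the log2 fold changes were 0.010 (95% interval -0.25 to 0.27) and -0.15 (-0.45 to 0.16). Fcer1g, the common signalling chain, had -0.35 in GF (unadjusted p = 0.0699) and -0.31 in exGF (unadjusted p = 0.101). The difference between these genes was not tested. Fcgr2b and Fcgr3 share sequence (5.88% and 13.4% of their 31-base words occur in other genes of the table).

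Among the 7 genes of lysosome, endosome and cytoskeleton was Lyz2, the 1 member called by the edgeR test. Lyz2, lysozyme M of the myeloid lineage (ENSMUSG00000069516, chr10:117277331-117282321, minus strand, GRCm38), had 11.7, 12.97, 12.2 and 10.4 CPM across CON, 7.36, 7.52, 7.63 and 7.82 across GF and 6.88, 4.15, 7.14 and 8.75 across exGF. The 4 GF libraries lay close together and all below CON, and exGF lay below CON with GFR2 the lowest. It fell in GF by 0.64 on the log2 scale (SE 0.12, 95% interval -0.89 to -0.38, edgeR adjusted p = 0.0522), a mean of 11.8 ± 1.08 CPM against 7.58 ± 0.192 (SD, n = 4). In exGF the log2 fold change was -0.81 (SE 0.18, unadjusted p = 6.89e-04, edgeR adjusted p = 0.334), and without GFR2 it was -0.63. The call in GF depended on the setting, being kept without CON replicate 4 or GF replicate 1 and lost without any 1 of CON replicates 1 to 3 or GF replicates 2 to 4 (edgeR adjusted p from 0.107 to 0.169). It was also lost in the edgeR fit of all 12 libraries (adjusted p = 0.212) and with a replicate block (edgeR adjusted p = 0.177), and its log2 fold change was -0.65 to -0.59 in the 8 settings of 16 that lost it. Of the 31-base words of Lyz2, 32.8% occur in other genes of the table. Its near copy Lyz1 had at most 1 count in every library.

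Unc93b1, the chaperone that carries nucleic acid-sensing Toll-like receptors to endosomes, had 13.1, 13.8, 11.7 and 11.2 CPM in the CON libraries, 10.3, 9.13, 10.8 and 8.37 in those of GF and 7.96, 9.11, 10.4 and 9.43 in those of exGF. Every GF and exGF library lay below every CON library. The log2 fold changes were -0.36 (unadjusted p = 0.0129, edgeR adjusted p = 0.402) and -0.43 (unadjusted p = 0.00422, edgeR adjusted p = 0.591). Ly86, or MD-1, the partner of the Toll-like receptor relative RP105, had 11.2, 9.94, 9.59 and 8.65 CPM in the 4 CON libraries, against 8.40, 6.98, 8.70 and 5.73 for GF and 5.76, 5.23, 7.42 and 7.05 for exGF. All exGF libraries were below CON, and GF replicate 3 lay just above the lowest CON library. The log2 fold change of Ly86 was -0.40 in GF (unadjusted p = 0.0197, edgeR adjusted p = 0.447) and -0.63 in exGF (unadjusted p = 7.21e-04, edgeR adjusted p = 0.334).

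Ctss (chr3:95526786-95556403, plus strand, GRCm38) had 74.1, 76.4, 69.5 and 68.5 CPM across CON, 68.5, 80.2, 64.95 and 70.1 across GF and 59.1, 43.5, 56.1 and 65.2 across exGF. GF ran across the range of CON, whereas all exGF libraries lay below CON and GFR2 was the lowest. The log2 fold change was -0.023 in GF (95% interval -0.21 to 0.16) and -0.37 in exGF (-0.61 to -0.13, unadjusted p = 0.00543, edgeR adjusted p = 0.610). Aif1, the cytoskeletal protein IBA1 used to stain microglia, had 8.08, 18.1, 11.7 and 6.89 CPM in the CON libraries, 11.8, 10.7, 11.8 and 10.6 in those of GF and 12.5, 10.4, 11.2 and 13.4 in those of exGF. CON replicates 2 and 4 were the highest and the lowest of all 12 libraries (coefficient of variation 44.8% in CON, 5.76% in GF), and the log2 fold changes were 0.0031 (95% interval -0.50 to 0.51) and 0.080 (-0.45 to 0.61). Cd68, a lysosomal glycoprotein of phagocytes, had -0.26 and -0.29 in GF and exGF, and the lysosomal membrane protein Laptm5 had -0.15 and -0.072. Neither had an unadjusted p under 0.05.

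The 5 border macrophage genes all lay below 0 in both comparisons, with a median log2 fold change of -0.54 in GF and -0.38 in exGF, and they were low. Mrc1, the mannose receptor CD206, had 9.11, 7.81, 8.63 and 7.62 CPM in the 4 CON libraries, against 5.73, 5.51, 7.04 and 5.29 for GF and 5.88, 5.66, 7.46 and 5.07 for exGF. No GF or exGF library overlapped CON. The log2 fold changes were -0.49 (SE 0.14, unadjusted p = 0.00391, edgeR adjusted p = 0.284) and -0.47 (SE 0.14, unadjusted p = 0.00590, edgeR adjusted p = 0.615). Cd74, the invariant chain that guides MHC class II, had 6.69, 9.39, 7.09 and 4.46 CPM across CON, 4.17, 4.92, 3.92 and 5.84 across GF and 4.85, 4.62, 5.48 and 5.01 across exGF. CON replicate 4 lay among the GF libraries and below the exGF libraries, and CON replicate 2 above all others. Cd74 had a log2 fold change of -0.54 in GF (unadjusted p = 0.0238) and -0.47 in exGF (unadjusted p = 0.0312).
The haemoglobin scavenger receptor Cd163 had -0.62 and -0.21 in GF and exGF, Lyve1 had -0.13 and -0.17, and the chemokine Pf4 had -1.04 and -0.38, each with an unadjusted p over 0.05. These 3 rested on few reads, with 12 to 81 counts per library for Cd163, 7 to 36 for Lyve1 and 3 to 38 for Pf4. Pf4 passed the filter on low counts only in the comparisons with CON, where its mean was highest (0.757 CPM, 0.360 in GF and 0.582 in exGF). Its passing thus leaned on the CON level, and its direction below 0 is no separate support. Summed over 12 meningeal genes, CPM stood at -26.8% from CON in GF and -22.7% in exGF, and the part of the meninges in the border macrophage values was not tested. Without the border macrophage genes, 25 of the other 32 members lay below 0 in GF (6 with an unadjusted p under 0.05) and 29 of 32 in exGF (13 with one).

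Colonization from weaning was compared with staying germ-free directly, and 0 members and 0 genes in all were called by the edgeR test (at an unadjusted p under 0.05, 521 genes or 3.35% were lower and 514 or 3.3% higher in exGF, and DESeq2 called 14 genes, 0.0847% of those with an adjusted p and 0.0423% in the lower direction, no member among them). Of the 36 members tested, 25 lay below 0 (51.3% of 15569 tested genes), with a median log2 fold change of -0.064 against -0.0047 over all tested genes. At an unadjusted p under 0.05, 2 members were lower in exGF (5.56%, beside 3.35% of all genes), Ctss at -0.34 (SE 0.12, unadjusted p = 0.0128) and P2ry13 at -0.28 (SE 0.12, unadjusted p = 0.0411), and the count was 1 without GF replicate 2, GFR3 or GFR4. No member's exGF libraries all lay on 1 side of the GF libraries (1.55% of all genes lay wholly below and 1.77% wholly above). For Lyz2 the interval of the exGF minus GF difference was -0.57 to 0.24, for Fcgr2b -0.40 to 0.20, for Csf1r -0.15 to 0.20 and for Mrc1 -0.32 to 0.38, in log2 units.

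Summed over the 37 members, CPM was 740, 775, 700.1 and 675 in CON, 659, 687, 636 and 624 in GF and 612, 582, 639 and 639 in exGF. CON replicate 4 lay below GF replicate 2, and all exGF libraries lay below all CON libraries. The mean was 723 ± 43.9 in CON (SD, n = 4), 651 ± 27.9 in GF (-9.88%) and 618 ± 26.9 in exGF (-14.5%). Of the 37 members, 28 to 31 lay below the CON mean in each GF library and 28 to 36 in each exGF library, and 28 did in CON replicate 4. By role, the mean summed CPM in GF differed from CON by -9.51% for homeostatic surface genes, -12.7% for lineage genes, -1.81% for TREM2 and engulfment, -14.9% for Fc receptors, -9.60% for lysosome and endosome and -30.8% for border macrophages. In exGF the same groups stood at -14.6%, -11.5%, -8.05%, -19.4%, -19.4% and -24.8%.

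**Figure D3:**
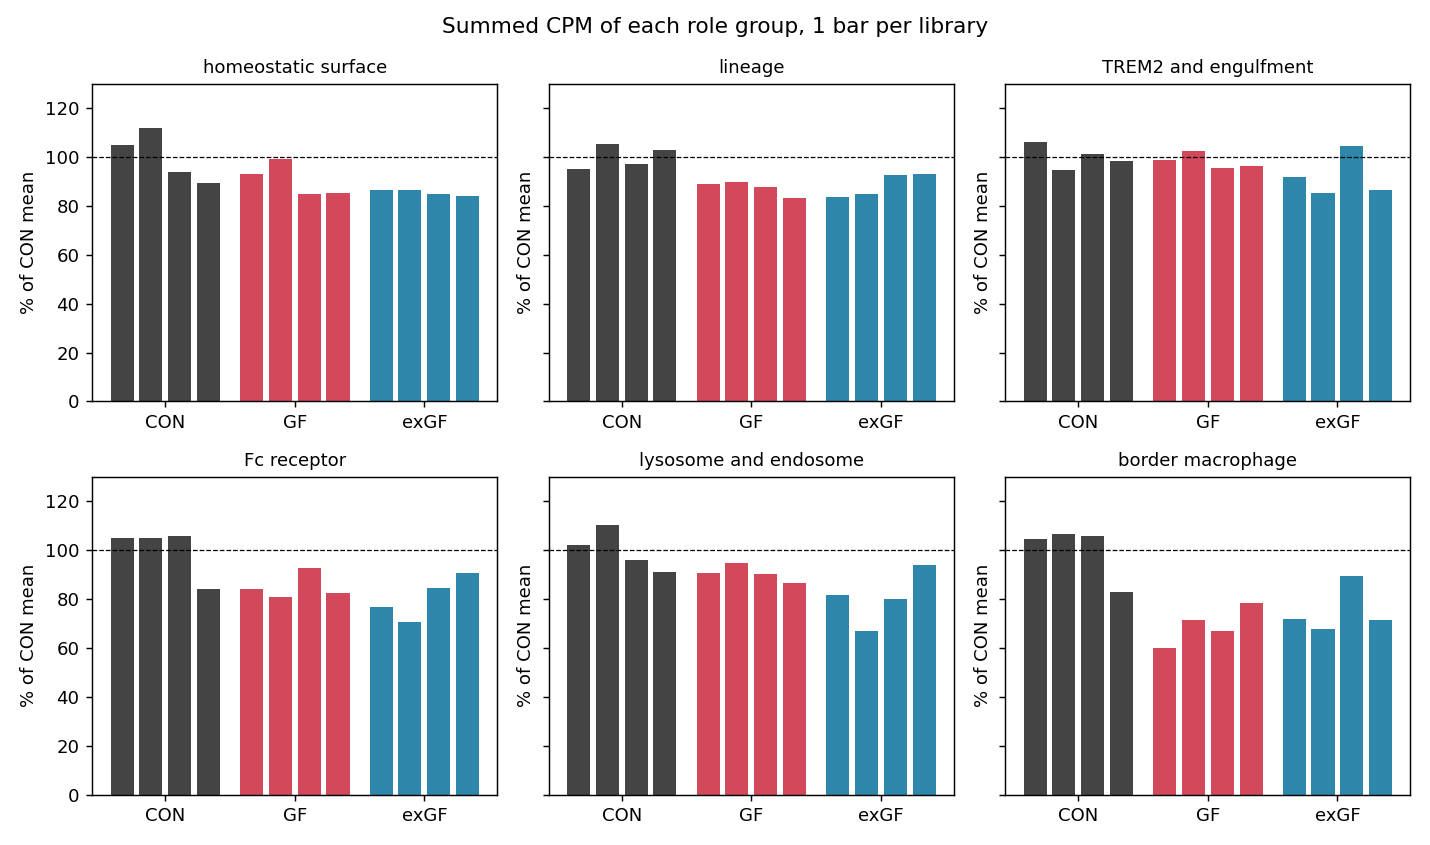
Summed CPM of the 6 role groups as a percentage of the CON mean (vertical axis, from 0), with 1 bar per library in the order CON, GF and exGF. For border macrophages all 4 GF bars and 3 of the 4 exGF bars lie below every CON bar, and for TREM2 and engulfment the bars of the 3 groups overlap.

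Genes of related lists were compared in the same way. Among 30 other microglia genes, 24 lay below 0 in each comparison with CON (median log2 fold change -0.12 in both). At an unadjusted p under 0.05, 3 were lower in GF, among them the Toll-like receptor relative Cd180 (-0.94, unadjusted p = 0.00902), which pairs with Ly86, and the guanine exchange factor Dock2 (-0.54, unadjusted p = 0.0108). In exGF 6 were lower, among them Lpcat2, a lysophospholipid acyltransferase (-0.39, unadjusted p = 0.00758). The phospholipase Plcg2 was -0.50 in GF against CON, 0.004 in exGF against CON and 0.52 in exGF against GF (unadjusted p = 0.00622, edgeR adjusted p = 0.736).

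Niche genes encode signals that act on microglia, receptors for them and proteins that activate or pass on these signals. Of the 17 on the list, 0 had an unadjusted p under 0.05 in either comparison with CON (0 at an adjusted p under 0.1). The CSF1 receptor ligands Csf1 and Il34 had log2 fold changes of -0.11 and -0.15 in GF and of -0.14 and -0.048 in exGF. Fractalkine, Cx3cl1, had 0.068 and 0.078. The TGF-beta receptor Tgfbr1 was -0.46 in exGF against GF (unadjusted p = 0.0131). Of 22 genes of activated and disease-associated microglia, 14 could be tested, and 1 in each comparison with CON had an unadjusted p under 0.05, Apoe at -0.26 and -0.28, a lipoprotein gene that astrocytes also express. Of the 10 proliferation genes tested against CON, 7 lay above 0 and 3 below in GF, and 2 above and 8 below in exGF. Only Pcna, the replication clamp, had an unadjusted p under 0.05 against CON, being higher in GF (0.27, unadjusted p = 0.00809, edgeR adjusted p = 0.351). Pcna was lower in exGF than in GF (-0.32, unadjusted p = 0.0127).

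Of the other border macrophage genes, 13 of 14 tested lay below 0 in GF (median log2 fold change -0.38) and 12 of 15 in exGF (median -0.40). At an unadjusted p under 0.05, 5 were lower in GF and 3 in exGF. The MHC class II gene H2-Eb1 had a mean of 1.66 ± 0.612 CPM for CON, 0.588 ± 0.186 for GF and 0.756 ± 0.238 for exGF (SD, n = 4), with log2 fold changes of -1.49 and -1.13. The scavenger receptor Stab1 had -0.49 in GF (unadjusted p = 0.00211) and -0.21 in exGF (unadjusted p = 0.160). The scavenger lectin Colec12 had -0.33 in GF (unadjusted p = 0.0307) and -0.35 in exGF (unadjusted p = 0.0142). Those above 0 were Ms4a7 in GF (0.044) and Folr2, Cd209f and Clec10a in exGF (0.14, 0.17 and 0.16). Clec10a in GF (-0.007) and F13a1 in exGF (-0.031) were close to 0.

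Meningeal genes had lower values in the same groups as the members. All 12 on the list lay below 0 in both comparisons with CON, with 9 lower at an unadjusted p under 0.05 in GF and 8 in exGF, and 1, the collagen gene Col1a2, fell in GF by the edgeR test (32.9 ± 3.36 CPM in CON, 20.4 ± 1.81 in GF, log2 fold change -0.69, edgeR adjusted p = 0.0168). Their summed CPM ranged from 242 to 335 in CON, 174 to 233 in GF and 200 to 250 in exGF. The 5 border macrophage members summed to 16.0 to 20.7, 11.6 to 15.2 and 13.1 to 17.3 CPM in the same groups. Leukocyte markers summed to 5.83 to 8.53 CPM in CON, 3.01 to 4.41 in GF and 4.45 to 7.53 in exGF. Of 5 that could be tested in GF, 2 lay below CON in every GF library (40%, beside 2.55% of all tested genes). They were the neutrophil gene S100a9 (-1.66, unadjusted p = 0.00865) and the monocyte chemokine receptor Ccr2 (-1.06, unadjusted p = 0.0186). Both were low, with means of 1.07 and 0.633 CPM in CON and 0.351 and 0.290 in GF. Genes this low can pass the filter on low counts through the group where they are higher, so no conclusion is drawn from the 2.

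The other lists ran in both directions. Oligodendrocyte genes were higher in GF, with 8 of 8 at an unadjusted p under 0.05 and 5 called (summed CPM 77.4% above CON in the mean, and 14.97% above it in exGF). Neuronal genes summed to 15.9% above CON in GF and 8.17% above it in exGF, astrocyte genes to 1.48% above CON in GF and -3.37% in exGF, and endothelial and mural genes to 2.68% and 9.24% above. Blood genes stood 0.585% above CON in GF and -25.1% in exGF, choroid plexus genes at -1.39% and -15.4%, and striatal genes at -8.80% and 2.97%. CPM are relative to the scaled total of a library, and the part of these lists in the members' values was not tested.

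**Figure D4:**
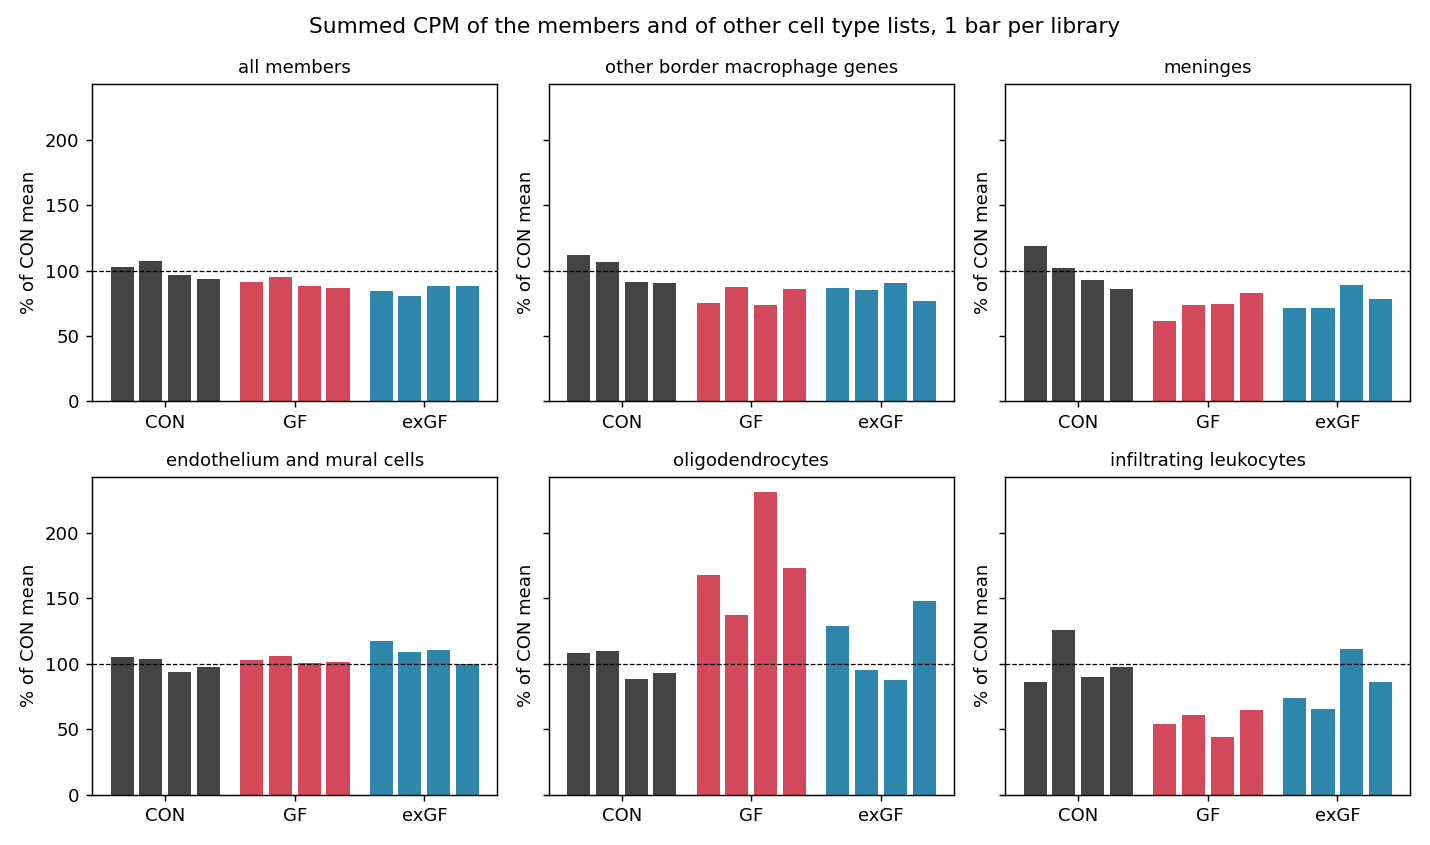
Summed CPM of the 37 members and of 5 other gene lists as a percentage of the CON mean (vertical axis, from 0), with 1 bar per library. The bars of GF and exGF lie below 100% in all libraries for the members, the other border macrophage genes and the meninges, from close to 100% upward for endothelium, and every GF bar lies above every CON bar for oligodendrocytes.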

How the data were processed

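Per the labels and the study's methods, the authors trimmed reads with Trimmomatic 0.32, aligned them to GRCm38.p3 with STAR (2.3.1u in the submitters' processing notes), and counted reads per Ensembl release 78 gene with HTSeq 0.6.0 without strand. The deposited values are raw counts of reads per gene. Unassigned reads were 20.6 to 25.3% of each column and were left out of library sizes. The columns GFR1 to GFR4 were taken as the exGF group from their names. Each pair of groups was fitted alone, as in the study, with edgeR 4.0.16 (filterByExpr, TMM scaling, quasi-likelihood test) in R 4.3.3, with a threshold of an adjusted p under 0.1. Between 15542 and 15813 genes passed the filter on low counts, and all 37 members did in both comparisons with CON. CPM are counts scaled to a common library total of counts on genes, and RPKM are CPM divided by the union exon length in kilobases (GENCODE M21 annotation of GRCm38). Overlap of exons and shared 31-base words were computed among genes of the table.

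The alternatives were other scalings, filters, DESeq2 1.42.0, limma-voom (limma 3.58.1), a fit of all 12 libraries, a replicate block, a stricter threshold, and leaving out each library. Members and lists were chosen with earlier results of these data known. Values in every library are given for the called member, the 5 members with the smallest p in each comparison and 13 members chosen by role, and in other lists for genes called or with the smallest p. Some genes of the other lists are counted with their list and not reported here by name. Libraries of a group differed by more than counting error (mean chi-square per gene 8.73 to 37.3), and intervals cover the spread between pools of animals.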

Additional observations from a re-analysis of the deposited data

Results flagged for a closer look

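In 5 of the 111 groups of 4 libraries (37 members in 3 groups), 1 library lay so far from the other 3 that its gap to the nearest, as a share of the range of the group, passed Dixon's critical value; chance alone gives about 1 in 20 groups. Slc2a5 had 4.44 CPM in CON replicate 2 against 3.65 in the nearest CON library (gap 0.843 of the range). Trem2 had 13.9 CPM in GF replicate 1 against 10.96 in the nearest GF library (0.859). Itgam had 28.2 CPM in GFR3 against 23.1 in the nearest exGF library (0.859). Fcgr3 had 9.41 CPM in CON replicate 4 against 11.9 in the nearest CON library (0.857). Pf4 had 1.06 CPM in GFR4 against 0.475 in the nearest exGF library (0.850), on few counts.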

How the results depend on the processing

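The median log2 fold change of the members stayed below 0 in every setting run, from -0.23 to -0.13 in GF against CON, from -0.32 to -0.18 in exGF against CON and from -0.11 to -0.038 in exGF against GF. The -0.18 came from DESeq2, run with a prior that shrinks log2 fold changes toward 0, so it is not on the same scale as the edgeR medians. In edgeR without CON replicate 2 the median in exGF against CON was -0.20. In GF against CON, 1 member and 39 genes were called, and 2 members and 221 genes without the filter on low counts, 3 members and 195 genes in DESeq2, 0 members in the fit of all 12 libraries, 0 with a replicate block, 0 at an adjusted p under 0.05, and 0 to 1 members and 27 to 60 genes when 1 library was left out. The adjusted p of Lyz2 (edgeR, DESeq2 or limma-voom, Benjamini-Hochberg) ranged from 0.00113 to 0.212 over 16 settings and was past the threshold in 8. Members lower at an unadjusted p under 0.05 numbered 7 to 16 on leaving out 1 library, 16 without CON replicate 4. In exGF against CON, 11 genes and 0 members were called, and 48 genes and 1 member without the filter, 52 and 3 in DESeq2, 7 genes with at least 10 counts in every library, and 8 to 14 genes on leaving out 1 library; members lower at an unadjusted p under 0.05 then numbered 9 to 20. In exGF against GF, 0 genes were called, and 32 without the filter, 14 in DESeq2, 2 in the fit of all 12 libraries and 0 to 7 on leaving out 1 library, 2 without GF replicate 4, 7 without GFR1 and 6 without GFR4. Members lower at an unadjusted p under 0.05 numbered 1 with at least 10 counts in every library and 1 to 2 on leaving out 1 library. On leaving out 1 library the log2 fold change in GF ran from -0.076 to 0.145 for P2ry12 and from -0.10 to 0.337 for Gpr34, both lowest without GF replicate 2. The cause of these differences was not tested. Counts of members at an unadjusted p under 0.05 were followed through the settings only after seeing the data.

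The replicate numbers of CON and GF did not pair the libraries (correlations of same-numbered deviations from -0.12 to 0.065). With the replicate block 51 genes and 0 members were called in GF against CON, and 11 members were lower at an unadjusted p under 0.05. The exGF columns carry no number from the labels, so no block was fitted there. At 13280926 counts, the shallowest library held 3 counts of Pf4, and Pf4, Cd163 and Lyve1 had the widest intervals of the members in GF against CON.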
